A study of Homo sapiens with 9 samples.

Results

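The 8 genes examined here, *FOXA1*, *HOXB13*, *GATA2*, *GATA3*, *TMPRSS2*, *KLK3*, *TP63* and *SYP*, are genes by which androgen activity and the lineages of the prostate are commonly read. They were chosen by name and are 8 of the 27902 genes that could be summed from the RNA-seq tables. Expression was measured in 9 libraries of DU145, an established human prostate carcinoma cell line. The cells carried a lentiviral short hairpin RNA: 3 libraries came from cells with a scramble hairpin (control), 3 from cells with shRNA FZD6 #1 (shRNA1) and 3 from cells with shRNA FZD6 #2 (shRNA2). All 3 groups are DU145 of genotype WT as labelled, and all expressed a hairpin. The methods describe pLKO.1 for constitutive and Tet-pLKO-GFP for inducible hairpins and do not say which these cells carried. *FZD6* encodes a Wnt receptor of the frizzled family. The design asks how its knockdown alters gene expression in this line. The labels call the libraries triplicates and do not say whether they came from separate cultures or infections, so p-values measure the spread between these libraries, which may be technical. DU145 is a single cell line, and its libraries cannot stand for other prostate tumors.

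Luminal cells of the prostate respond to androgens through transcription factors that bind DNA together with pioneer factors, proteins that open chromatin. *FOXA1* encodes the forkhead pioneer factor, *GATA2* a zinc finger factor that takes part in the androgen response, and *HOXB13* a homeobox factor specific to prostate and distal gut. *KLK3*, which encodes prostate-specific antigen, and *TMPRSS2*, which encodes a serine protease of the cell surface, are among the androgen target genes used most often as a readout. *TP63* encodes a transcription factor that marks basal cells, *GATA3* a GATA factor of luminal epithelia, and *SYP* synaptophysin, a protein of synaptic vesicles by which neuroendocrine tumors are recognized.

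Levels are given as FPKM, fragment counts scaled for both transcript length and library size, so that they can be compared between genes. A gene is called expressed here when it reached at least 1 FPKM in all 9 libraries, low when it did not but its mean was at least 0.1 FPKM, and near 0 when its mean was under 0.1 FPKM. By this rule 2 of the 8 genes were expressed (*FOXA1* and *GATA2*), 1 was low (*SYP*) and 5 were near 0 (*GATA3*, *TMPRSS2*, *HOXB13*, *KLK3* and *TP63*). Fewer cells that express a gene and less RNA per cell cannot be told apart in such bulk libraries.

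The sequences that precede the transcription starts of *FOXA1*, *GATA2* and *KLK3* are shown because these genes stand for the expressed factors and for an androgen target near 0. They are the 250 bases before the start, 5′ to 3′ on the strand of the gene, from RefSeq on GRCh38.p14, and 6 of the 8 genes had an entry in that table. The window of *FOXA1* is chr14:37595250-37595499 on the minus strand, that of the distal *GATA2* start is chr3:128493202-128493451 on the minus strand, that of the proximal *GATA2* start is chr3:128488531-128488780 on the minus strand, and that of *KLK3* is chr19:50854665-50854914 on the plus strand. Capitals mark a match to the forkhead motif TGTTTNC in *FOXA1* and a match to AGAACA, the hexamer of the androgen response element, in *KLK3*.
FOXA1: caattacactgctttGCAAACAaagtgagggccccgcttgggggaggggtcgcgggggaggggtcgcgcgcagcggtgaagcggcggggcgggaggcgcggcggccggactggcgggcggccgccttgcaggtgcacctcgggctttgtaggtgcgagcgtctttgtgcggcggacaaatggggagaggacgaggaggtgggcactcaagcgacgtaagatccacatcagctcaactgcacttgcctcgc
GATA2 distal start: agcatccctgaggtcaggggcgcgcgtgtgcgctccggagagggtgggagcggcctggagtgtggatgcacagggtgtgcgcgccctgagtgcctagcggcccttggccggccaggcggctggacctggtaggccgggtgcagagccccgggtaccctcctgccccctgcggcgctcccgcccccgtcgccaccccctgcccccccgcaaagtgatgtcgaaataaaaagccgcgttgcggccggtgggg
GATA2 proximal start: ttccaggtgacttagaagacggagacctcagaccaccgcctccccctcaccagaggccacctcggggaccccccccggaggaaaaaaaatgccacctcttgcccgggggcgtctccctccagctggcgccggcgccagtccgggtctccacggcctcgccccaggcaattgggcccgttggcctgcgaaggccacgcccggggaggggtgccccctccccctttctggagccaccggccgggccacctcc
KLK3: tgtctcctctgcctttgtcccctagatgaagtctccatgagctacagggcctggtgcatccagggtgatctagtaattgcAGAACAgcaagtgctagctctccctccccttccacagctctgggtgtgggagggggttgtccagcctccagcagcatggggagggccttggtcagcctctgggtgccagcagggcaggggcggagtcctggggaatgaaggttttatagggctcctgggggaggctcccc

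Both strands were searched for 4 motifs, and no match overlapped another in the printed windows. TGTTTNC was found in 15.5% of all 35116 windows of this length, AGAACA in 12.4%, the GATA motif AGATAA in 9.17% and CAATAAA, a motif of the HOXB13 type, in 3.67%. The *FOXA1* window held 1 forkhead match, read on the opposite strand, which begins 235 bases before the start. The *KLK3* window held 1 AGAACA, which begins 170 bases before the start. Neither *GATA2* window held any of the 4 motifs. The windows differed in CG dinucleotides: *FOXA1* had 26, the distal and proximal *GATA2* starts had 24 and 18, and *KLK3* had 1, where the median of all windows was 11.

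The tables give no counts. Depth, estimated from the confidence bounds of genes with a single transcript, was 32.8 to 41.0 M fragments per library. The same bounds give an implied number of fragments for values quoted below, which is rough for genes near 0. *FZD6* was lower in all knockdown libraries: it was at 20.04 to 20.92 FPKM with scramble, 9.47 to 10.2 with shRNA1 and 7.69 to 8.79 with shRNA2, which follows the labels. Stroma, immune and endothelial markers had no expressed member, and their summed levels were 1.55 to 1.98, 0.685 to 2.35 and 0.152 to 0.254 FPKM per library.

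*FOXA1* was the most abundant of the 8 genes and was lower in the *FZD6* knockdown libraries. It lies on chromosome 14 from 37589552 to 37595249 (hg38) and has 1 RefSeq entry. The control libraries were at 29.6, 30.4 and 29.4 FPKM. The shRNA1 libraries were at 27.8, 27.0 and 27.3 FPKM. The shRNA2 libraries were at 26.4, 23.7 and 25.3 FPKM. Every control library was above every shRNA1 library, and every shRNA1 library was above every shRNA2 library. These values rest on 2938 to 4272 implied fragments per library, and the control mean was above that of 77.5% of the 12509 genes tested.

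On the log2(FPKM + 1) scale *FOXA1* fell by 0.18 in the 6 knockdown libraries against the 3 control libraries (SE 0.05, 1.13-fold, adjusted p = 0.0348, limma with Benjamini-Hochberg adjustment over all 12509 genes). The 6 knockdown libraries all lay below the controls (two-sided exact permutation p = 0.0119, the smallest that 84 arrangements allow). At this threshold 20.6% of all tested genes were called in this comparison, and 25.9% had groups that do not overlap. In the lower direction these shares were 7.1% called and 9.46% not overlapping, so *FOXA1* was 1 of many genes with a difference of this kind. Over all genes 1690 were called higher and 888 lower, and the split depended on the scaling: it was 1047 and 1058 with quantile normalization and 816 and 705 with a length trend removed. The call was lost without scramble replicate 1, 2 or 3 (adjusted p = 0.0972, 0.125 and 0.0825), without shRNA2 replicate 1 or 3 (adjusted p = 0.0541 and 0.0629) and when genes under 1 FPKM were also tested (adjusted p = 0.0523), while the direction held in all 21 alternatives.

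Taken by hairpin, the mean of *FOXA1* dropped by 15.7% with shRNA2 and was -8.11% from control with shRNA1, from means of 29.8 ± 0.519 (SD, n = 3) with scramble to 27.4 ± 0.399 (SD, n = 3) with shRNA1 and 25.1 ± 1.37 (SD, n = 3) with shRNA2. The log2 change was -0.24 with shRNA2 (SE 0.04, adjusted p = 0.00569), and it passed the threshold in all 22 alternatives. With shRNA1 it was -0.12 (SE 0.04, adjusted p = 0.0771) and did not pass, although it did without shRNA2 replicate 1 or 2 (adjusted p = 0.0496 and 0.0197). The difference between the hairpins was -0.12 (95% interval -0.21 to -0.03, adjusted p = 0.121) and was not called. Both hairpins are compared with the same 3 scramble libraries. Of all genes 26.7% were called with shRNA2 (15.3% higher and 11.4% lower), 18.8% with shRNA1 (11.7% higher and 7.19% lower) and 6.71% between the hairpins (1.92% higher and 4.79% lower with shRNA2). Groups did not overlap for 40.6%, 46.8% and 26.4% of all genes (16.6%, 17.9% and 14.5% in the lower direction), so the separation of *FOXA1* by hairpin is common among genes. Groups of 3 against 3 allow no exact p below 0.1, and all 3 comparisons of *FOXA1* were at that value (permutation test, two-sided).

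*FOXA1* did not meet the criteria of the study's methods, an unadjusted p under 0.01 with a change of at least 1.2-fold, because its change was 1.13-fold. Neither of the 2 genes tested met them by the two-group comparison on log2 values, where 2.89% of all genes did. At an unadjusted p under 0.05 limma counted 1 of the 2 genes tested, *FOXA1*, where 35.4% of all genes were counted.

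The 3 tested genes whose levels followed *FOXA1* most closely over the 9 libraries were *GPC1* (Pearson's r = 0.988), which encodes the cell surface proteoglycan glypican-1, *SCARB1* (r = 0.982), which encodes a receptor for high-density lipoprotein, and *SHC1* (r = 0.981), which encodes an adaptor of receptor tyrosine kinases. Each of them had its highest mean with scramble and its lowest with shRNA2. *GPC1* went from 152.0 FPKM with scramble to 141.2 with shRNA1 and 130.4 with shRNA2. These were picked as the highest of all r values, and the libraries share their 3 groups, so they are a description only.

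**Figure D1:**
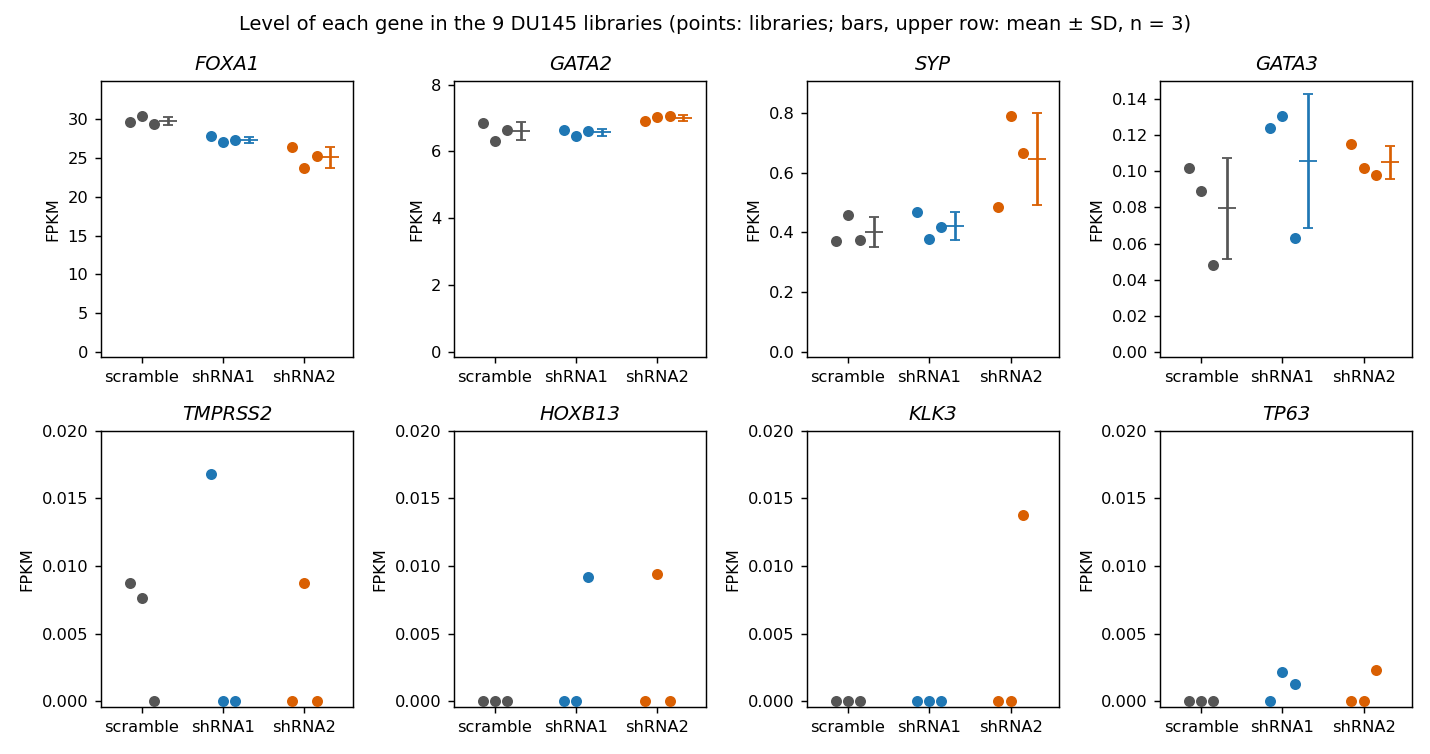
FPKM (y axis, linear from 0) of the 8 genes in each of the 9 DU145 libraries, grouped on the x axis as scramble, shRNA1 and shRNA2, with points for libraries and, in the upper row, bars for mean ± SD (n = 3). *FOXA1* steps down from 29.4 to 30.4 FPKM with scramble to 23.7 to 26.4 with shRNA2, *GATA2* stays between 6.33 and 7.05, and the genes of the lower row stay under 0.02 FPKM.

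The relatives of *FOXA1* were hardly present. *FOXA2*, a forkhead factor of endoderm and neuroendocrine tumors, was at 0.0402 to 0.206 FPKM, and *FOXA3*, a liver factor of the same family, at 0.0771 to 0.402 FPKM. Of the FOXA family, *FOXA1* was the expressed member.

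*GATA2* was expressed, and no change was called. It lies on chromosome 3 from 128479422 to 128493201 (hg38). The control libraries were at 6.86, 6.33 and 6.64 FPKM, the shRNA1 libraries at 6.65, 6.46 and 6.62, and the shRNA2 libraries at 6.91, 7.04 and 7.05. All shRNA2 libraries lay above all others, while shRNA1 and control overlapped. Groups did not overlap, in either direction, for 40.6% of all genes with shRNA2 against control and for 26.4% between the hairpins. The log2 difference was 0.03 for knockdown against control (SE 0.04, 95% interval -0.05 to 0.11, adjusted p = 0.541), -0.01 for shRNA1 (95% interval -0.08 to 0.07, adjusted p = 0.916) and 0.07 for shRNA2 (95% interval 0.00091 to 0.14, adjusted p = 0.122). Between the hairpins it was 0.08 (95% interval 0.01 to 0.15, adjusted p = 0.185). Its sign for knockdown against control turned, to -0.02, once a trend with transcript length was removed.

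Little of the level of *GATA2* was assigned to the distal start. The entry NM_032638, which begins at the distal start (128493201), held 0.000497% to 5.24% of the summed *GATA2* FPKM and was under 0.001 FPKM in 5 of the 9 libraries, with a highest value of 0.349 FPKM. NM_001145661, from the proximal start at 128488530, was at 3.07 to 5.27 FPKM. NM_001145662, which begins further downstream at 128487921 and has no window in the promoter table, was at 1.77 to 3.64 FPKM. The share of NM_001145661 overlapped between all 3 groups, at 57.1% to 73.3% with scramble, 51.0% to 59.4% with shRNA1 and 43.5% to 74.9% with shRNA2. The entries share most exons, so the split is Cufflinks' estimate and moved far more between libraries than the sum did. The sequences of both starts are printed above.

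**Figure D2:**
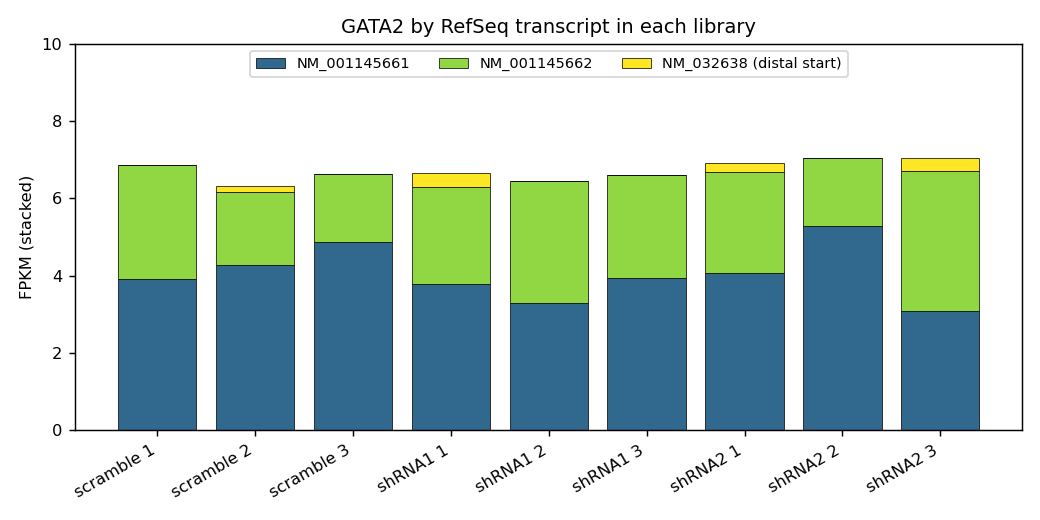
*GATA2* FPKM stacked by RefSeq entry (y axis) in each of the 9 libraries (x axis). The bar tops lie between 6.33 and 7.05 FPKM, while the split between NM_001145661 and NM_001145662 varies within groups and the distal entry NM_032638 adds at most 0.349 FPKM.

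Of the other GATA factors, *GATA6*, known from gut and lung, was expressed at 1.41 to 1.71 FPKM and was not called (log2 difference 0.03, adjusted p = 0.691). *GATA4*, a factor of heart and endoderm, was at 0.350 to 0.686 FPKM, *GATA1* stayed at or under 0.0206 FPKM and *GATA5* was listed at 0 throughout. *GATA3* was near 0. Its 2 RefSeq entries, on chromosome 10 from 8054688 to 8075198, gave sums of 0.102, 0.0889 and 0.0482 FPKM with scramble, 0.124, 0.131 and 0.0632 with shRNA1 and 0.115, 0.102 and 0.0980 with shRNA2. The groups overlapped, and the 6 knockdown libraries did not differ from control beyond their spread (two-sided exact permutation p = 0.19). Only 3.30 to 10.3 implied fragments per library stand behind these values. Within the GATA family, *GATA2* thus had the highest level, 6.73 FPKM on average over the 9 libraries.

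*HOXB13* was listed at 0 in 7 of the 9 libraries. It lies on chromosome 17 from 48724765 to 48728750. shRNA1 replicate 3 and shRNA2 replicate 2 had 0.00916 and 0.00940 FPKM, and each of these values equals about 1.00 implied fragment. The rest of its cluster was transcribed: 6 of the HOXB genes had at least 1 FPKM in every library. *HOXB7* was highest at 31.5 to 36.9 FPKM, *HOXB9*, the neighbor of *HOXB13* within the cluster, was at 22.03 to 25.70, and *HOXB6* at 9.89 to 12.1. *HOXB5* had 4.90 to 6.29 FPKM, *HOXB8* 2.17 to 2.85 and *HOXB2* 1.94 to 3.13. *HOXC13*, the paralog of *HOXB13* in the HOXC cluster, was expressed at 3.43 to 4.28 FPKM, *HOXA13* was at 0.455 to 0.697 and *HOXD13* was listed at 0.

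Of the genes of the HOX list, none was called in knockdown against control among the 9 tested, whose median log2 difference was 0.03 where that of all genes was 0.03. At an unadjusted p under 0.05, which 35.4% of all genes reached, limma counted 3 of them: *HOXB9* (adjusted p = 0.0558), *HOXC13* (adjusted p = 0.0873) and *MEIS2* (adjusted p = 0.0963). *MEIS2*, a cofactor of HOX proteins, fell with shRNA2 (log2 change -0.28, SE 0.05, adjusted p = 0.00645). Its libraries were at 5.51 FPKM on average with scramble and 4.38 with shRNA2. It is the only gene of the list called in that comparison, and the difference between the hairpins was not called (log2 difference -0.19, adjusted p = 0.0563).

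Among nuclear receptors for steroid hormones, *NR3C1*, the glucocorticoid receptor, was expressed at 23.8 to 27.7 FPKM and was not called (log2 difference -0.05, 95% interval -0.16 to 0.07, adjusted p = 0.544). *PGR* was listed at 0, and *NR3C2*, *ESR1* and *ESR2* were at or under 0.115 FPKM.

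*KLK3* was listed at 0 in 8 of 9 libraries. It has 3 RefSeq entries on chromosome 19 from 50854915 to 50860764, and only 1 of them had any value: 0.0138 FPKM in shRNA2 replicate 3, from 0.494 implied fragments. The other 14 kallikreins, serine proteases encoded beside it, were also low or near 0: none of the 15 was expressed, 2 were listed at 0 in every library, and the highest mean was that of *KLK15*, 0.165 FPKM. *KLK2*, the androgen target next to *KLK3*, was at or under 0.0476 FPKM. The summed level of the 15 was 0.267 to 0.471 FPKM with scramble and 0.274 to 0.473 with knockdown, and these ranges overlap.

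*TMPRSS2*, on chromosome 21 from 41464305 to 41508158, was listed at 0 in 5 libraries. Scramble replicates 1 and 2 were at 0.00875 and 0.00766 FPKM, shRNA1 replicate 1 at 0.0168 and shRNA2 replicate 2 at 0.00877, and no library had more than 1.27 implied fragments. Values above 0 occurred in all 3 groups. None of 12 type II transmembrane serine proteases was expressed by the rule. *ST14*, which encodes matriptase, came nearest at 0.872 to 1.16 FPKM.

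Many genes described as androgen targets elsewhere were nevertheless transcribed. Of 25 androgen target genes, 14 were expressed and 11 were at or near 0, with *KLK2*, *KLK3*, *KLK4*, *TMPRSS2* and *ACP3* among the latter. Of the 14 tested, 2 were called higher and 1 lower in knockdown against control, where 13.5% of all genes were called higher and 7.1% lower. Their median log2 difference was -0.03, beside 0.03 over all genes.

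*SORD*, which encodes sorbitol dehydrogenase, rose from 19.7, 19.5 and 19.96 FPKM with scramble to 21.8, 22.04 and 21.9 with shRNA1 and 22.2, 22.1 and 21.7 with shRNA2 (log2 change 0.15, SE 0.02, adjusted p = 0.00345). *NDRG1*, a stress-responsive gene, fell from 32.7 ± 0.324 (SD, n = 3) to 28.5 ± 0.336 (SD, n = 3) and 29.3 ± 1.04 (SD, n = 3) FPKM (log2 change -0.17, SE 0.03, adjusted p = 0.00608). Both kept their call in all 21 alternatives.

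Most coregulators of steroid receptors were expressed, 13 of 14, and several were lower in the knockdown libraries: 6 of the 13 fell and 1 rose, where 7.1% of all genes were called lower and 13.5% higher. The median log2 difference of the 13 was -0.13, beside 0.03 over all genes. This list, like the others, was chosen with earlier results of these data known, so its counts and median are a description only. *EP300* and *CREBBP* encode histone acetyltransferases that act as coactivators, and *NCOA2* a p160 coactivator. *EP300* fell from 13.6, 13.9 and 12.9 FPKM with scramble to 9.54, 10.2 and 9.97 with shRNA1 and 10.3, 11.9 and 9.77 with shRNA2 (log2 change -0.36, SE 0.06, adjusted p = 0.00665). All 6 knockdown libraries lay below the controls, as they did for 9.46% of all genes tested. *CREBBP* fell by 0.30 on the log2 scale (SE 0.05, adjusted p = 0.00492).

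Both calls held in all 21 alternatives, with the smallest changes, -0.23 and -0.18, where a trend with transcript length was removed. *NCOA2* fell by 0.29 (SE 0.08, adjusted p = 0.0332), and its call held in 14 of 21 alternatives. It was lost with that trend removed (adjusted p = 0.12) and without scramble replicate 1, 2 or 3 or shRNA2 replicate 1 (adjusted p = 0.0537 to 0.128). No filter, alone or with a pseudocount of 0.1, also ended it (adjusted p = 0.058 and 0.0672). *FKBP4*, the HSP90 cochaperone of steroid receptors, rose by 0.13 (SE 0.04, adjusted p = 0.0325), and the call held in only 10 of 21 alternatives. It was lost with centring, quantile normalization and the length trend removed (adjusted p = 0.0582, 0.195 and 0.0584) and without scramble replicate 1, 2 or 3, shRNA1 replicate 3 or shRNA2 replicate 1 or 3 (adjusted p = 0.0503 to 0.123). *GRHL2*, an epithelial transcription factor, was at or under 0.00529 FPKM.

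**Figure D3:**
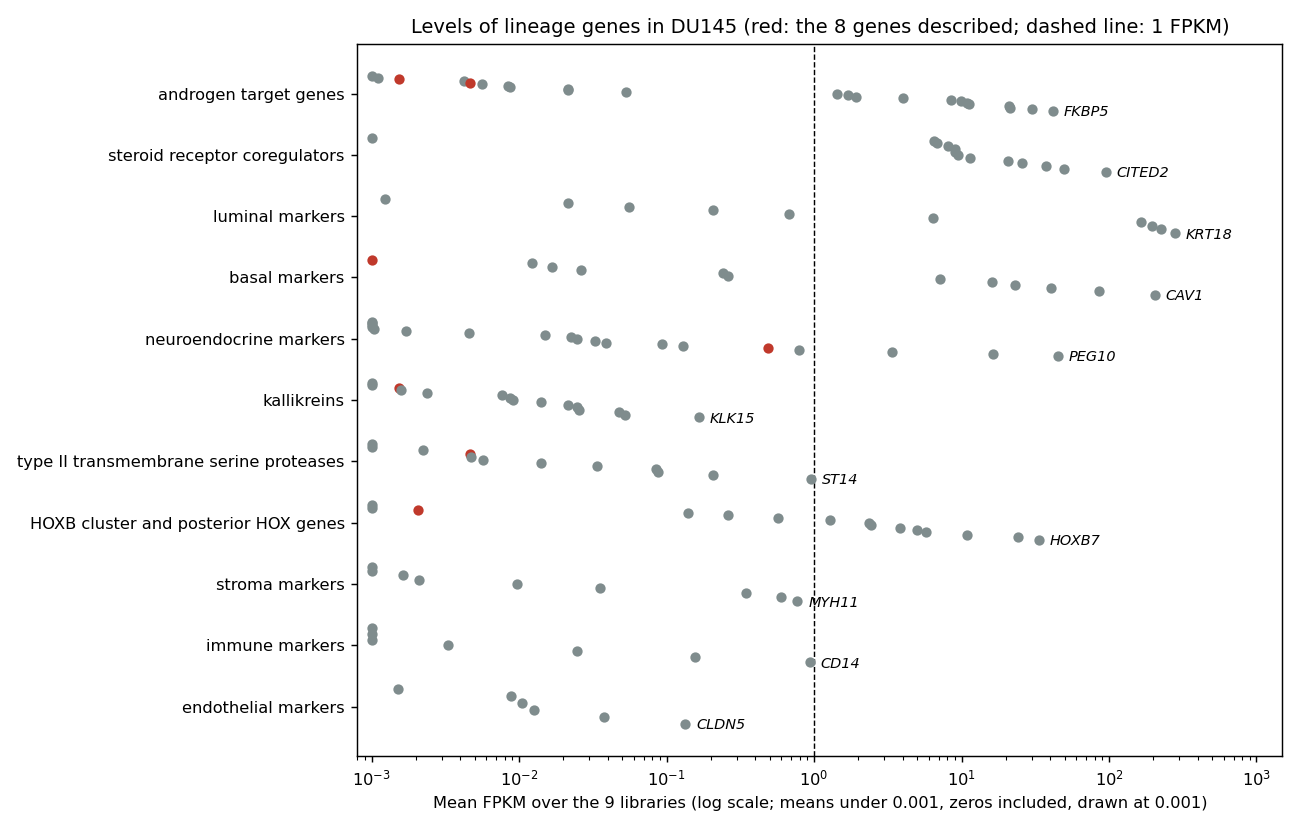
Mean FPKM over the 9 libraries (x axis, log scale, means under 0.001 drawn at 0.001) of the genes of each list (y axis), 1 point a gene, with the 8 genes described in red where a list holds them, the highest gene drawn named and a dashed line at 1 FPKM, without the genes not reported here. Androgen targets fall into genes above 1 FPKM and 11 genes under 0.1, and all kallikreins and type II transmembrane serine proteases lie left of the line.

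*TP63* was the lowest of the 8 genes. Of its 13 RefSeq entries, on chromosome 3 from 189596746 to 189897279, only 1 had a value above 0, in 3 knockdown libraries and at no more than 0.00233 FPKM. In shRNA1 replicates 2 and 3, 0.00219 and 0.00129 FPKM came with 0.25 and 0.0625 implied fragments. These implied numbers do not follow FPKM and depth, so they are not read counts here. Its relative *TP73* was at 0.0375 to 0.0878 FPKM.

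Other basal markers were divided. The basal keratins *KRT5*, *KRT14* and *KRT17* were near 0, with a highest library of 0.0746 FPKM, while *KRT15* was low at 0.199 to 0.390 FPKM. The surface receptor *NGFR* was also low, at 0.143 to 0.302 FPKM. Other surface and adhesion genes of the list were expressed: *CAV1*, which encodes caveolin-1, had 146.7 to 235.5 FPKM, and *BCAM*, *CDH3*, *ITGA6*, *DST* and *ITGB4* were also above 1 FPKM in all libraries. Of these 6 tested genes 3 fell in knockdown against control and none rose, where 7.1% of all genes were called lower and 13.5% higher. *ITGB4*, the integrin subunit of hemidesmosomes, fell by 0.25 on the log2 scale (SE 0.04, adjusted p = 0.00326) and kept its call in all 21 alternatives. *CDH3*, which encodes P-cadherin, fell by 0.15 (SE 0.04, adjusted p = 0.0241), a call lost without scramble replicate 1 or 2 (adjusted p = 0.0993 and 0.0992).

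*DST*, which encodes the hemidesmosome linker dystonin, fell by 0.40 (SE 0.12, adjusted p = 0.0445). Its call held in 10 of 21 alternatives. It was lost with the length trend removed (adjusted p = 0.154), without any scramble or shRNA1 library and without shRNA2 replicate 1 or 3 (adjusted p = 0.0588 to 0.161). No filter, alone or with a pseudocount of 0.1, also ended it (adjusted p = 0.0806 and 0.086). *CAV1* was not called in knockdown against control (adjusted p = 0.318), and the hairpins differed. With shRNA1 it was at 228.5, 235.5 and 233.1 FPKM, near the 226.1, 227.3 and 228.9 of scramble, and with shRNA2 at 146.7, 160.85 and 154.41 (log2 change with shRNA2 -0.56, SE 0.04, adjusted p = 0.000279).

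Luminal keratins were abundant. *KRT18* averaged 279.4 FPKM over the 9 libraries, *KRT8* 223.7 and *KRT19* 164.2. *KRT19* rose from 153.2 ± 2.25 (SD, n = 3) FPKM with scramble to 168.3 ± 2.91 (SD, n = 3) with shRNA1 and 171.1 ± 4.45 (SD, n = 3) with shRNA2 (log2 change 0.15, SE 0.03, adjusted p = 0.0079). That call was lost with quantile normalization and with the length trend removed (adjusted p = 0.154 and 0.231). *KRT8* and *CD24* fell with shRNA2 (log2 changes -0.15 and -0.12, adjusted p = 0.0145 and 0.0119). Without scramble replicate 1 the call of *KRT8* was lost, though narrowly, with an adjusted p of 0.05003. Of the other luminal markers, *ACP3*, *MSMB* and *FOLH1* were near 0, although scramble replicate 2 had 0.504 FPKM of *MSMB*. Of the 6 luminal genes tested, 2 were called higher in knockdown against control (*KRT19* among them) and none lower, where 13.5% of all genes were called higher and 7.1% lower.

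*SYP* was present at a low level and was highest with shRNA2. It lies on chromosome X from 49187812 to 49200202 and has 1 RefSeq entry. The control libraries were at 0.370, 0.459 and 0.373 FPKM, the shRNA1 libraries at 0.469, 0.377 and 0.419, and the shRNA2 libraries at 0.484, 0.789 and 0.664. All 3 shRNA2 libraries lay above all others, by 0.0148 FPKM at the closest point. Such separation is common: among the 12509 tested genes, which leave out *SYP*, shRNA2 did not overlap with control for 40.6%. Between the hairpins the share was 26.4%, both in either direction. The mean with shRNA2 was 1.61 times that of control, 0.646 ± 0.153 (SD, n = 3) against 0.401 ± 0.0506 (SD, n = 3) FPKM.

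*SYP* was below the level needed for the fit over all genes. The exact permutation test gave p = 0.1 for shRNA2 against control, the smallest 3 against 3 can give, and p = 0.155 for all 6 knockdown libraries against control, both two-sided. When genes of any level were tested, its log2 difference with shRNA2 was 0.23 (SE 0.07, adjusted p = 0.0683), so no call was made. The libraries held 29.1 to 62.2 implied fragments of *SYP*.

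Few of the other neuroendocrine genes were expressed. Of 20 markers, *SYP* included, 3 were expressed: *PEG10*, a gene of retrotransposon origin, at 41.2 to 50.5 FPKM, *ENO2*, which encodes neuron-specific enolase, at 14.9 to 17.5, and *DLL3*, a Notch ligand, at 3.16 to 3.67. None of these was called in any comparison by limma. At an unadjusted p under 0.05, which 35.4% of all genes reached, knockdown against control counted 1 of the 3, *PEG10* (log2 difference -0.14, adjusted p = 0.114). All 3 had a negative log2 difference in knockdown against control and with shRNA1, and 1 of 3 had a positive one with shRNA2. *CHGA*, which encodes chromogranin A, was at or under 0.0833 FPKM, and *CHGB*, *INSM1* and *MYCN* were listed at 0 in every library. *NEUROD1*, a factor of neuroendocrine cells, was at or under 0.00928 FPKM.

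Within the synaptophysin family the relatives expressed in these libraries were far higher than *SYP*. *SYNGR2* averaged 132.7 FPKM, *SYPL1* 50.4, *SYNGR1* 8.56 and *SYNGR3* 6.82, and *SYNPR* was listed at 0. *SYNGR2*, which encodes synaptogyrin-2, rose by 0.13 on the log2 scale in knockdown against control (SE 0.04, adjusted p = 0.0482). That call held in only 6 of 21 alternatives. It was lost without any scramble or shRNA1 library and without shRNA2 replicate 1 or 3 (adjusted p = 0.0689 to 0.166). Either smaller pseudocount, no filter, centring, quantile normalization and removal of the length trend also ended it (adjusted p = 0.0518 to 0.162). *SYNGR3*, which encodes a protein of synaptic vesicles, moved against *SYP* with shRNA2. It went from 7.27, 7.76 and 8.47 FPKM with scramble to 5.28, 4.56 and 5.29 (log2 change -0.55, SE 0.06, adjusted p = 0.0018), while shRNA1 was at 7.40 to 7.85.

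**Figure D4:**
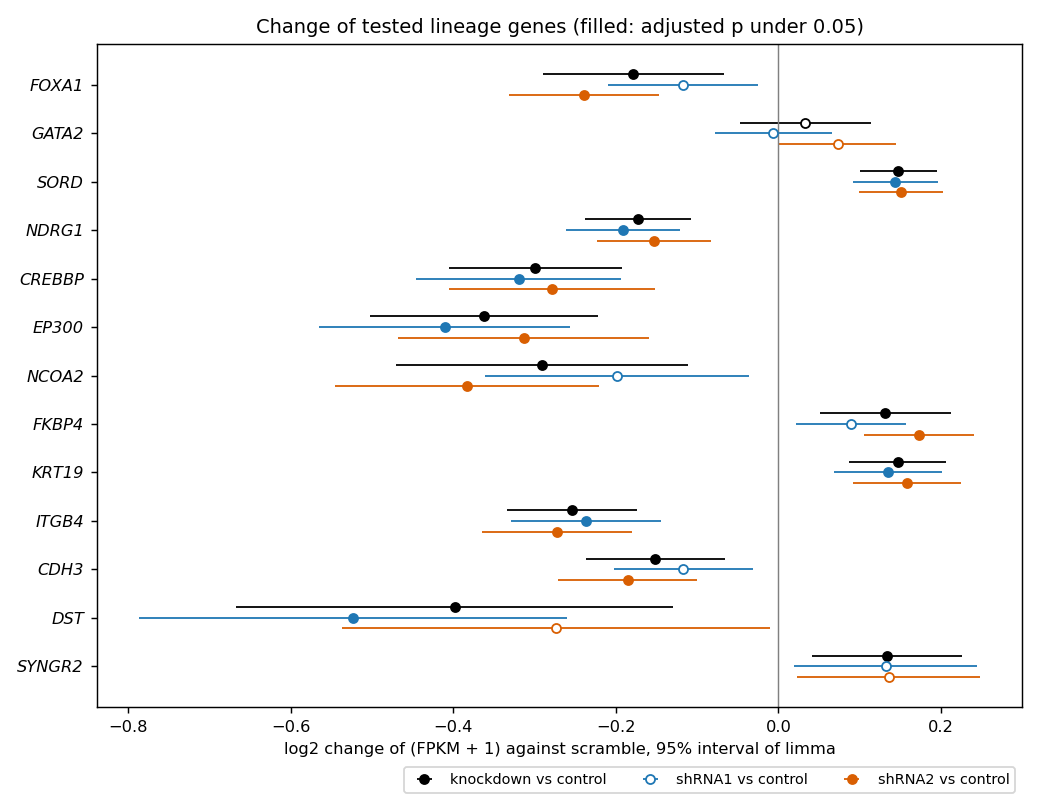
Log2 change of FPKM + 1 against scramble (x axis) with 95% limma intervals for *FOXA1*, *GATA2* and the list genes called in knockdown against control that the text describes (y axis), for all knockdown libraries, shRNA1 and shRNA2, where filled points have an adjusted p under 0.05. *FOXA1* is filled for knockdown (-0.18) and shRNA2 (-0.24) and open for shRNA1 (-0.12), and *GATA2* is open throughout.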

How the data were processed

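The authors prepared stranded poly(A) RNA libraries, mapped the reads with STAR and estimated expression with Cufflinks, and deposited FPKM with confidence bounds for each RefSeq entry. The deposited loci are on hg38, whereas the methods name mm10. Versions and strand settings are not given in the sources used here. Titles gave the groups.

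RefSeq (GRCh38.p14) paired 72645 of 73240 accessions with genes, and FPKM were summed per gene, leaving out 42 genes with an unusable entry. The 12509 genes that averaged 1 FPKM or more were fitted as log2(FPKM + 1) in limma 3.58.1 (R 4.3.3), in a model of knockdown and control and a model of 3 groups. P-values were adjusted over all of them (Benjamini-Hochberg, threshold 0.05). No count model was used because FPKM are not counts. Exact permutation tests compared libraries for the 8 genes. Implied fragments are the square of 2 FPKM over the distance to the upper bound and cover counting error only. For genes near 0, such as *TP63*, they do not always follow FPKM and depth. Lengths came from GENCODE v29. The scripts were tested on simulated data.

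The genes and lists were chosen with earlier results of these data known. Named are the 8 genes, expressed members of their families, up to 4 called genes per direction and the highest gene of each other list, the GATA2 entries and the 3 genes closest to *FOXA1*. Other named genes were chosen after their values were seen, and some list genes are counted but not reported here. Alternatives changed the pseudocount (0.1 or 0.01) or the filter (none or 5 FPKM), centred or quantile-normalized the values, removed a length trend, added a replicate block, restricted accessions, chromosomes or libraries, kept any Cufflinks status, or left out each library. Combining no filter with a pseudocount of 0.1 was decided after seeing the data.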

Additional observations from a re-analysis of the deposited data

Results flagged for a closer look

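Among 9 genes examined (the 8 genes and *FZD6*), 1 had a library far from the other knockdown libraries, where chance flags about 1 in 20. *KLK3* was at 0.0138 FPKM in shRNA2 replicate 3 and listed at 0 in the 5 other knockdown libraries. This value stands for 0.494 implied fragments. With the 5 others at 0, any value above 0 would have been flagged, so the rate of 1 in 20 does not apply to *KLK3*.

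The effect of the hairpins differed for 5 genes named here, by the limma contrast of shRNA2 with shRNA1, where 6.71% of all genes were called. They were picked for this call from the tested list genes and *FZD6*, so their number is a description only. None of the 14 androgen target genes, 13 coregulators or 9 genes of the HOX list that were tested was called in this contrast. *CAV1* had a log2 difference of -0.59 between shRNA2 and shRNA1 (SE 0.04, adjusted p = 0.000401), and *SYNGR3* by -0.51 (SE 0.06, adjusted p = 0.00501). Both differences were called in all 22 alternatives. *CD24* differed by -0.16 (adjusted p = 0.0105) and lost its call when only the 6 libraries compared were fitted (adjusted p = 0.0523). *KRT8* differed by -0.18 (adjusted p = 0.0231) and lost its call without shRNA1 replicate 1, 2 or 3 or shRNA2 replicate 1 and with only the 6 libraries compared (adjusted p = 0.0668 to 0.0901). *FZD6* itself was lower with shRNA2 by -0.25 (adjusted p = 0.0273), with the call lost in 9 of 22 alternatives, among them without scramble replicate 2, any shRNA1 library or shRNA2 replicate 1 or 3 (adjusted p = 0.0521 to 0.0986). The part of the level of *FZD6* in these differences was not tested.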

How the results depend on the processing

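Of the 8 genes, 2 were tested in the main fit. *FOXA1* was the 1 called in knockdown against control, where 20.6% of all genes tested were called. The number called was 0 with no filter, under a replicate block and with no filter plus a pseudocount of 0.1 (adjusted p of *FOXA1* 0.0523, 0.0595 and 0.0663). It was 0 to 1 when each library was left out. In shRNA1 against control, where 18.8% of all genes were called, the number called was 0. It was 1 with quantile normalization and 1 with only the 6 libraries compared (adjusted p of *FOXA1* 0.0453 and 0.019), and 0 to 1 without single libraries. For shRNA2 against control it was 1, for shRNA2 against shRNA1 0 and for the study's criteria 0, under all alternatives run. In the main fit the shares of all genes were 26.7%, 6.71% and 2.89%, in that order. The cause of these changes was not tested. The sign of *GATA2* turned in knockdown against control with the length trend removed (-0.0211) and in shRNA1 against control without scramble replicate 1 or shRNA1 replicate 2 (0.0177 and 0.00502, range -0.0332 to 0.0177 without single libraries). The log2 difference of *SYP*, whose level is under the pseudocount of 1, grew with no filter and a pseudocount of 0.1 to 0.31 in knockdown against control, 0.56 with shRNA2 and 0.50 between the hairpins, with adjusted p = 0.409, 0.0657 and 0.18.

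Same-numbered libraries of different groups correlated at -0.07 to 0.11 in their deviations from the group means, and 1 of 9 pairs was above 0.1. Libraries of different numbers correlated at -0.12 to 0.18, with 1 of 18 pairs above 0.1. These values show no pairing by number, but with 3 libraries a group they cannot exclude one. With the replicate block 2377 genes were called in knockdown against control, beside 2578 without it, and 997 to 3255 over all alternatives. The same range was 917 to 3538 for shRNA1 (2357 as fitted), 2097 to 4195 for shRNA2 (3335), 333 to 1189 between the hairpins (839) and 187 to 639 by the study's criteria (361). Higher and lower calls were 1458 and 899 for shRNA1, but 827 and 1054 with quantile normalization and 752 and 757 with the length trend removed. Depth limits the near-0 genes: 1 implied fragment of *HOXB13* was 0.00916 FPKM in shRNA1 replicate 3, and the level of 1 fragment differs with the depth of each library.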

Other observations

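*GATA2-AS1*, a gene that overlaps *GATA2*, was at 2.91 to 3.80 FPKM, beside 6.33 to 7.05 for *GATA2*. The kit marks strand, but whether strand was used in counting is not given in the sources used here. Without strand, reads of a gene and an overlapping gene cannot be told apart. *SYP-AS1* and *GATA3-AS1*, which overlap *SYP* and *GATA3*, had at most 4.33e-07 FPKM and 0 FPKM.

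The tested gene nearest to *SYP*, *PRICKLE3*, lies 1442 bases from it and encodes a planar cell polarity protein. It rose with shRNA2 (log2 change 0.26, SE 0.05, adjusted p = 0.00615), in the same libraries in which *SYP* was highest. With shRNA1 it was not called (log2 difference 0.04, adjusted p = 0.594). Of all genes 15.3% were called higher with shRNA2. *CCDC22*, the tested gene on the other side of *SYP*, was not called with shRNA2 (log2 difference 0.07, adjusted p = 0.33). The tested neighbor of *FOXA1*, *MIPOL1*, 37191 bases away, was not called with either hairpin (log2 differences 0.02 and -0.02, adjusted p = 0.82 and 0.825). *EEFSEC*, a tested neighbor of *GATA2*, was called lower with shRNA2 (log2 change -0.18, adjusted p = 0.0486), while *GATA2* was not called. That call of *EEFSEC* held in 7 of 22 alternatives. A link between neighboring genes was not tested.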
